A study of Mus musculus with 44 samples.

Results

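The 6 mice described here went through fear extinction (EXT) and carry batch label 3 or 4. They were taken from the 16 EXT mice by their batch labels, 6 from batches 3 and 4 against 10 from batches 1, 2 and 5, out of 44 mice in all. The mice were chosen with earlier results of these data known, and the transcripts Malat1 and mt-Nd2 were given beforehand as their markers. The p-values of Malat1 and mt-Nd2 are therefore no independent support for the split. Every mouse was an adult of the labelled strain Crh-TRAP, heterozygous for Cre recombinase driven by the Crh promoter and for a Cre-dependent EGFP-tagged ribosomal protein L10a, and each sample was the bilateral amygdala punches of 1 mouse. TRAP (translating ribosome affinity purification) pulls the tagged ribosomes out of the homogenate through the EGFP, so the RNA measured should come from ribosomes of Crh neurons of the labelled tissue, the central amygdala (CeA). EXT mice were given tones paired with foot shock and, on the next day, tones without shock in another context. The 12 FC mice were killed after the tone and shock pairings and the 16 TA (tone alone) mice after tones without shock. By their labels, both sets of EXT mice therefore had the same behaviour, and the comparison shows how much of the profile went with the batch label. Batch 3 held 3 males and 2 females, animals 22, 23, 25, 44 and 53, and batch 4 held 1 male, animal 55. The other 10 were 6 males and 4 females: 2 of batch 1, 3 of batch 2 and 5 of batch 5. The labels do not say which step of the work a batch was.

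Messenger RNA on cytosolic ribosomes is the intended product of the method. Mitochondria keep a genome and ribosomes of their own inside the organelle, nuclear long non-coding RNAs such as Malat1 stay with chromatin and speckles, and astrocytes and oligodendrocytes do not use the Crh promoter, so these transcripts serve as readouts of RNA that the tagged ribosomes were not meant to carry. Crh neurons of the CeA are GABAergic and share neuropeptides such as somatostatin, enkephalin and dynorphin with neighbouring cells. No input or unbound RNA was analysed here, so the level of background itself was not measured. In a pulldown from tissue, fewer cells of a type, less RNA per cell and a larger share of background RNA cannot be told apart.

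The messenger RNAs made in mitochondria are shown first, because their code separates them from the rest. TGA, a stop codon on cytosolic ribosomes, is read as tryptophan by the mitochondrial ribosome, and each of the 6 mitochondrial messenger RNAs in the data holds between 8 and 17 of them in frame. The stretches below are from the GENCODE transcripts on GRCm38, plus strand of chromosome M, 5′ to 3′, with the first in-frame TGA in capitals. They come from mt-Nd2 (chrM:3989-4018, 8 in-frame TGA codons) and mt-Nd5 (chrM:11931-11960, 10 codons), which encode subunits of complex I, and from mt-Co1 (chrM:5331-5360, 17 codons), which encodes the catalytic subunit of cytochrome c oxidase.
mt-Nd2: ctaatactaataTGAgtaggcctggaattc
mt-Nd5: acaacctggcacTGAgtcaccataaattca
mt-Co1: ttcattaatcgtTGAttattctcaaccaat

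Values are log2 cpm, read counts scaled to library size on a log2 scale, and differences are batches 3 and 4 minus batches 1, 2 and 5, with the standard error (SE) between mice from limma with sex in the model. Adjusted p-values are two-sided and Benjamini-Hochberg adjusted over 8203 genes, and a gene passed the test at an FDR of 0.05. The p-values measure the spread between mice and not that between batches. Batch 3 held 5 of the 6 mice and batch 4 held 1. The effective library size ran from 12802113 to 17805609 reads in the 6 mice and from 13054305 to 16787593 in the other 10, a log2 difference of -0.02 (two-sided exact permutation p = 0.711). The lowest count of any gene in an EXT mouse was 28 reads. Crh, Sst, Penk, Gad1 and Gad2 were all measured in each EXT mouse. Only genes above a floor in every sample were kept, so the same holds for every measured gene, astrocyte and myelin genes included. The presence of these markers is therefore no check on the capture of the labelled neurons. Expression gave no check on the labelled sex, and for animals 22, 25, 44 and 53 the labelled sex or group breaks the run of animal numbers. All of these animals are in batches 3 and 4. Animal 44 is numbered among FC mice, so its behaviour rests on the label alone.

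Animals 21 and 23 stood apart from their own sets. On the first principal component of the 16 EXT mice, with 43% of the variance, the other 5 mice of batches 3 and 4 scored 23.92 to 47.56 and 9 of the other 10 scored -30.26 to -16.04. Animal 21, of batch 2, scored 26.79, on the side of batches 3 and 4, and animal 23, of batch 3, scored -1.42, between the sets. Results are given with both animals, and without each where that changed them.

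Between the 2 sets, 2933 of 8203 genes passed the test, 35.8%, although the labelled behaviour was the same, and 46.3% had an unadjusted p under 0.05. Those that passed were 1585 (19.3%) higher in batches 3 and 4 and 1348 (16.4%) lower. The median difference over all genes was 0.0. The larger differences were upward: 322 of the higher and 111 of the lower differed by more than 1 on the log2 scale, and 26 of the higher but 0 of the lower by more than 2. In 86 genes (1.05%) every mouse of batches 3 and 4 lay above every other EXT mouse, and in 72 genes (0.878%) every one lay below. The number of genes that passed went from 2933 to 3538 without animal 21, to 3568 without animal 23 and to 2081 without animal 25. Against batches 1 and 2 alone it was 354, and with only animals 23 and 55 kept from batches 3 and 4 it was 21. The difference between the sets itself differed between the sexes in 0 genes by limma, with 942 at an unadjusted p under 0.05.

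The mitochondrially encoded transcripts stood furthest from the rest. All 8 that were measured passed the test as higher, where 19.3% of all genes did, with differences of 4.24 to 5.26 and a median of 4.6, against 0.0 over all genes. With only animals 23 and 55 kept from batches 3 and 4, 0 of the 8 passed in limma, with a median of 3.66 and mt-Nd2 at 4.24 (limma adjusted p = 0.122), and 1684 of 8203 genes had an unadjusted p under 0.05. Mt-Nd2 ran from 9.08 through a median of 11.36 to 11.92 log2 cpm in batches 3 and 4. In the other EXT mice it ran from 3.89 through 5.34 to 11.3. Animal 23 was the lowest of the 6 and animal 21, at 11.3, the highest of the 10, and without these values no other mouse of the 2 sets overlapped: the next were 11.05 in animal 22 and 8.26 in animal 28. The difference in mt-Nd2 was 5.26 (SE 0.79, a 38.4-fold change, limma adjusted p = 0.000539).

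Mt-Co1 ran from 10.35 to 12.85 log2 cpm in batches 3 and 4, and from 6.12 to 12.62 in the other EXT mice with a median of 7.17. Its difference was 4.37 (SE 0.71, limma adjusted p = 0.000717). The 2 mitochondrial ribosomal RNAs, which form the core of the organelle's own ribosome, moved with the messenger RNAs. Mt-Rnr1 was higher by 4.42 (SE 0.75) and mt-Rnr2 by 4.24 (SE 0.73). Of the other messenger RNAs, mt-Nd1 was higher by 4.52, mt-Nd4 by 5.16 and mt-Nd5 by 4.68, and mt-Cytb, the cytochrome b of complex III, by 4.91. Thus ribosomal and messenger RNAs of the organelle rose by similar amounts. The median of the 8 was 5.05 without animal 21 and 5.23 without animal 23.

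As a share of reads in the measured genes, the 8 transcripts took 0.689% to 4.16% in batches 3 and 4, with a median of 2.95%. In the other EXT mice they took 0.0303% to 3.04%, with a median of 0.0771%. The lowest share of the first set was animal 23 and the highest of the second was animal 21. TA mice, with 0.0113% to 0.47%, and FC mice, with 0.0372% to 1.05%, had no mouse at the median of batches 3 and 4. The 95% Wilson interval of such a share was at most 0.011 percentage points to each side, and covers counting error only. Batches 3 and 4 hold EXT mice alone, so a difference from the TA and FC mice cannot be told apart from one between conditions.

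**Figure D1:**
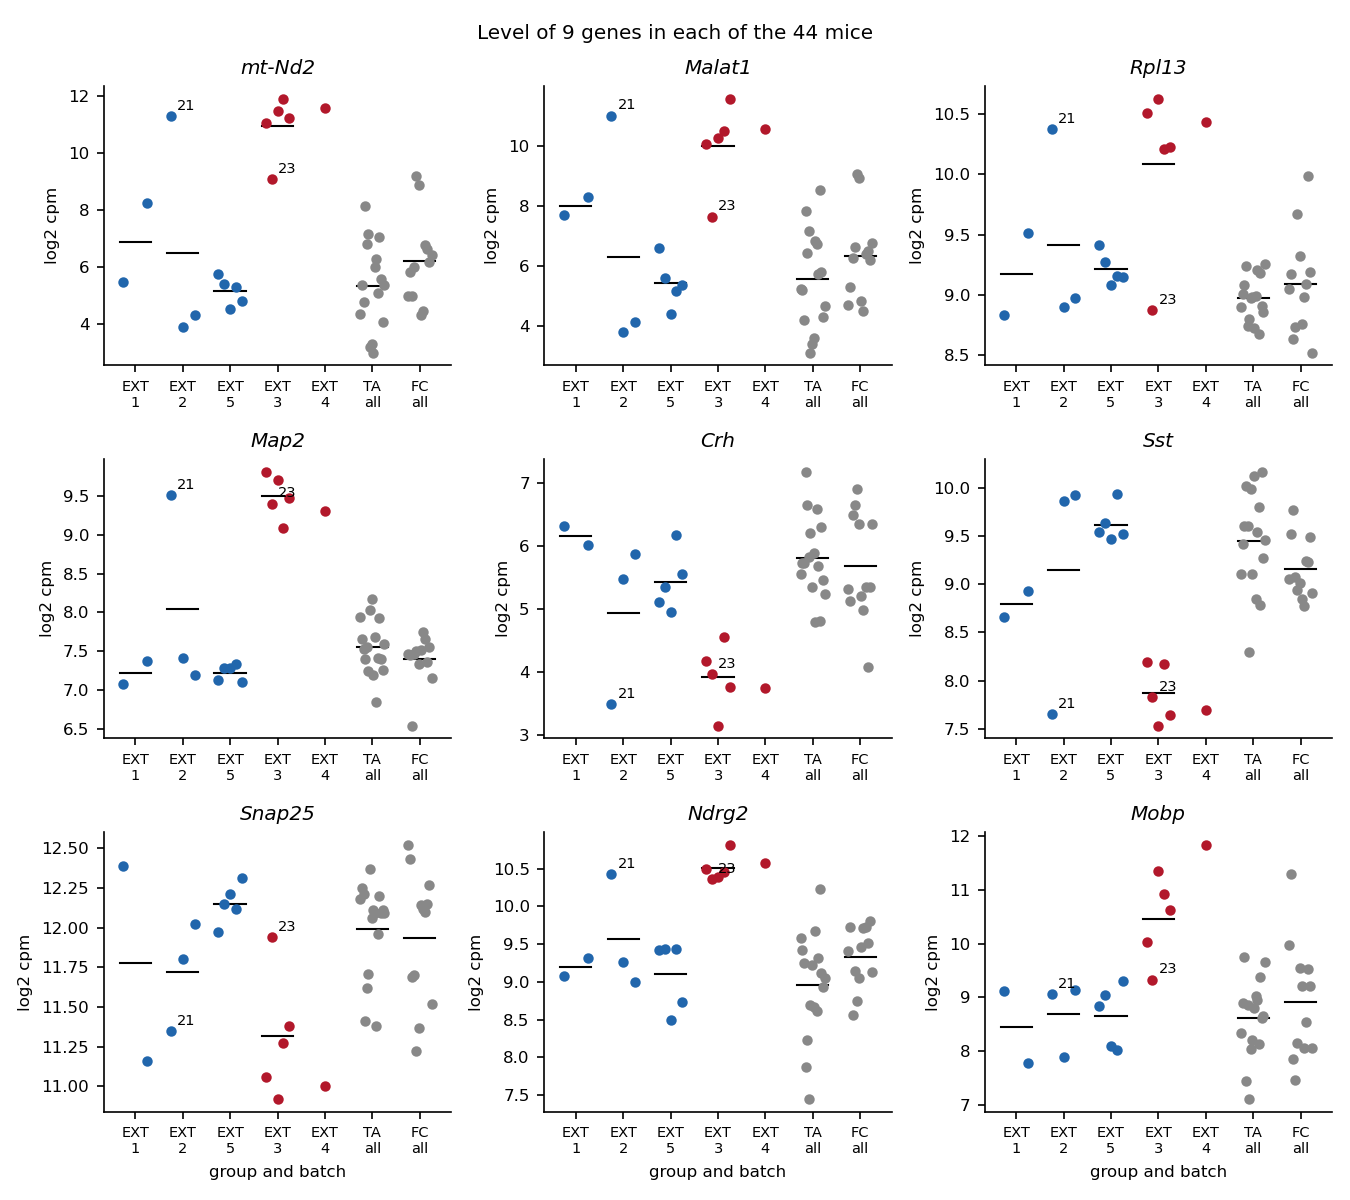
Level of 9 genes (log2 cpm) in each mouse: EXT mice of batches 1, 2 and 5 in blue, EXT mice of batches 3 and 4 in red, and all TA and FC mice in grey, with the mean of each column of more than 1 mouse as a line and animals 21 and 23 numbered. For mt-Nd2, 5 of the 6 red points lie between 11.05 and 11.92, and animal 21 at 11.3 lies among them.

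Malat1, an abundant nuclear RNA of splicing speckles, was also higher in batches 3 and 4. It lies on chromosome 19, 5795690 to 5802672 on the minus strand, and is annotated as a long intergenic non-coding RNA. It ran from 7.64 through 10.37 to 11.56 log2 cpm in batches 3 and 4 and from 3.8 through 5.48 to 11 in the other EXT mice. The lowest of the first set was again animal 23 and the highest of the second again animal 21. Animal 23 also lay below both mice of batch 1, animal 26 at 7.69 and animal 28 at 8.3. The other 5 mice of batches 3 and 4, from 10.05, lay above all TA mice, at most 8.54, and all FC mice, at most 9.07. The difference was 4.02 (SE 0.75, a 16.2-fold change, limma adjusted p = 0.00139). Malat1 did not pass against batches 1 and 2 alone, at 3.64 (limma adjusted p = 0.0547).

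Other non-coding RNAs moved less. Of 18 listed nuclear long non-coding RNAs, 7 were measured. Of these, 4 were higher (57.1%, against 19.3% of all genes) and 1 was lower (14.3%, against 16.4%), with a median difference of 0.67. Meg3, from an imprinted cluster, was higher by 1.51 (SE 0.46, limma adjusted p = 0.0185), and Pantr1 by 0.67 (SE 0.24, limma adjusted p = 0.036). Sox2ot, which overlaps Sox2, was the other one that was higher, and Peg13, an imprinted brain transcript, was lower by 0.64 (limma adjusted p = 0.0473). These calls rested on single mice: Meg3 did not pass without animal 25 (1.28, limma adjusted p = 0.0563), and Pantr1 and Peg13 lost theirs when 1 of 8 or 1 of 11 mice, respectively, was left out, with differences of 0.53 to 0.7 and -0.66 to -0.53. Meg3 was chosen after its values were seen, ran from 5.36 to 7.23 log2 cpm in batches 3 and 4 and from 3.2 to 7.3 in the other EXT mice, and so overlapped.

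By annotation, 26 of 85 long non-coding and related genes were higher (30.6%) and 4 were lower (4.71%), against 19.1% and 16.6% of 7878 protein-coding genes. Of 36 pseudogenes, 4 were higher (11.1%) and 8 lower (22.2%). The largest differences of the 85 genes after Malat1, chosen after their values were seen, were in 2900097C17Rik, 2900052N01Rik and 1700020I14Rik, long intergenic non-coding RNAs known only by clone names. 2900097C17Rik ran from 7.76 through 8.74 to 9.67 log2 cpm in batches 3 and 4 and from 4.66 through 5.65 to 8.45 in the other EXT mice. Animal 21 held the 8.45 and was the only one of the 10 to overlap, while all 6 mice lay above every TA and FC mouse, at most 6.64. The difference was 2.84 (SE 0.4, limma adjusted p = 0.000403), and it was 2.59 for 2900052N01Rik and 2.05 for 1700020I14Rik. Gas5, a spliced host of small nucleolar RNAs, was higher by 1.66 (SE 0.4, limma adjusted p = 0.00491), and its sets overlapped, from 7.4 in animal 23 to 9.08 in animal 21. Of 11 listed small structured RNAs and their long relatives, 1 was measured, Lars2. It is annotated as protein-coding, for a mitochondrial leucyl-tRNA synthetase, so no structured RNA of the list was itself measured. Lars2 did not pass (-1.34, SE 0.66). Its level was 13.31 to 13.77 in animals 24, 58 and 60 and at most 10.95 in every other EXT mouse.

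The RNA of the machinery that the pulldown targets did not move as the mitochondrial RNA did. Rpl10a, which encodes the ribosomal protein that carries the tag, ran from 6.21 to 7.17 log2 cpm in batches 3 and 4 and from 6.4 to 7.6 in the others. The sets overlapped and the difference was -0.03 (SE 0.18, limma adjusted p = 0.901), positive at 0.13 without animal 23 and at 0.07 against batch 5 alone. Reads of the transgene and of the native gene cannot be told apart here. Of the 81 cytosolic ribosomal protein genes, 22 were higher (27.2%, against 19.3% of all genes) and 3 lower (3.7%, against 16.4%), with a median of 0.43.

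Among the 4 most abundant of these, Rpl13 was higher by 0.88 (SE 0.26, limma adjusted p = 0.0138) and Rpl4 by 0.76 (SE 0.2, limma adjusted p = 0.00853). Rpl41 and Rpl3 did not pass, with differences of 0.69 and 0.49. Without animal 21 both did, at 0.88 and 0.66. Rps2, chosen after the values were seen, had the largest difference of the list, 1.47 (SE 0.32). Animal 23 stood apart in these genes: Rpl13 was 8.87 in it and 10.21 to 10.63 in the other 5 mice of batches 3 and 4. Without animal 23, 45 of the 81 genes were higher, against 1876 of all 8203, and the median was 0.64. Without animal 21, 44 were higher, against 1867 of all 8203, and the median was 0.54. The count fell to 12 without animal 22, 8 without animal 25 and 9 without animal 53 or animal 55. Of all 8203 genes, 1312, 1179, 1344 and 1236 were higher without animals 22, 25, 53 and 55, respectively. The share of the list was then no longer above that of all genes, so how many passed depended on single mice.

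Among nuclear genes for mitochondrial proteins, more were lower than higher, and most did not pass. Of 76 mitochondrial ribosomal protein genes, 0 were higher and 34 were lower (44.7%, against 16.4% of all genes), with a median of -0.35, by limma. Of the 76 differences, 63 were below 0. Mrpl28 was lower by 0.73 (SE 0.15, limma adjusted p = 0.00248) and every mouse of batches 3 and 4, from 6.93 to 7.37 log2 cpm, lay below every other EXT mouse, from 7.47 to 8.41. Mrpl20 was lower by 0.56. Mrpl42 and Mrpl51 did not pass, with differences of 0.43 and -0.31.

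Of 79 nuclear-encoded genes of oxidative phosphorylation, 21 were lower (26.6%, against 16.4% of all genes) and 1 was higher (1.27%, against 19.3%), with a median of -0.31. The 4 most abundant, Atp5b, Cox8a, Cox4i1 and Ndufa4, did not pass, and Ndufa4 differed by -0.61 (SE 0.25, limma adjusted p = 0.061). The number lower was 12 without animal 22, 25 or 55, where 1018, 902 and 936 of all 8203 genes were lower, respectively. It was 34 without animal 28, where 1408 of all genes were lower. Ndufa4 passed without animal 26, 28 or 53, at -0.79 to -0.68. Of the transcripts for mitochondrial components that passed, the 8 of chromosome M were higher and all but 1 of the nuclear ones in these lists were lower. The numbers lower were 2 of the 76 and 2 of the 79 against batches 1 and 2 alone, where 143 of all 8203 genes were lower.

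More pan-neuronal genes were lower than higher. Of 28 pan-neuronal genes, 12 were lower (42.9%, against 16.4% of all genes) and 3 were higher (10.7%, against 19.3%), with a median of -0.47. Snap25, a SNARE protein of synaptic vesicle release, ran from 10.92 through 11.17 to 11.94 log2 cpm in batches 3 and 4 and from 11.16 through 12.07 to 12.39 in the others. The ranges overlapped, with animal 23 the highest of the first set. Its difference was -0.69 (SE 0.2, limma adjusted p = 0.014). The vesicle protein gene Vamp2 was lower by 0.4 and the tubulin-binding Stmn3 by 0.54, and Gap43, of growth cones, did not pass. Without animal 25 or animal 55 the list had 7 lower genes, where 902 and 936 of all 8203 genes were lower, respectively. Vamp2 (-0.37 and -0.38) and Stmn3 (-0.47 and -0.48) did not pass without animal 25 or without animal 55. The 3 that were higher were Map2, Celf4 and Nefl.

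Map2, the dendritic microtubule protein, was chosen after its values were seen because it went furthest against its list. It ran from 9.09 through 9.43 to 9.81 log2 cpm in batches 3 and 4. In the others it ran from 7.08 to 7.41 in 9 mice, and animal 21 had 9.51. Animal 23, at 9.4, was inside the range of its own set, unlike its mitochondrial RNA. The difference was 2.01 (SE 0.28, a 4.04-fold change, limma adjusted p = 0.000403).

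Peptides of the target neurons were among the genes that fell. Crh, the corticotropin-releasing hormone that drives Cre in these mice (chromosome 3, 19693401 to 19695396, minus strand), ran from 3.15 through 3.87 to 4.56 log2 cpm in batches 3 and 4 and from 3.49 through 5.52 to 6.31 in the others. Animal 21 held the 3.49, and the other 9 were at 4.95 or above, so that without animal 21 the sets did not overlap. Crh fell by 1.55 on the log2 scale (SE 0.33, limma adjusted p = 0.00274). Of the 6 mice, 4 lay below every TA and FC mouse. Against batches 1 and 2 alone the difference was -1.59 and did not pass (limma adjusted p = 0.054).

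Somatostatin, Sst, fell by 1.52 (SE 0.23, limma adjusted p = 0.00056), with 7.53 to 8.19 log2 cpm in batches 3 and 4 against 7.65 to 9.94 in the others. All 6 mice lay below every TA and FC mouse. The enkephalin precursor Penk fell by 1.68 (SE 0.4, limma adjusted p = 0.00458) and the dynorphin precursor Pdyn, chosen after its values were seen, by 1.81 (SE 0.31). Ppp1r1b, the dopamine-regulated phosphatase inhibitor DARPP-32, fell by 1.09 (SE 0.31). Neither Penk (-1.09) nor Ppp1r1b (-0.85) passed against batches 1 and 2 alone. As a whole, the list of GABAergic and central amygdala genes was mixed: 9 of 37 measured genes were lower (24.3%, against 16.4% of all genes), 3 were higher (8.11%, against 19.3%) and the median was -0.14. The enzymes that make GABA did not pass: Gad1 differed by -0.5 (limma adjusted p = 0.105) and Gad2 by -0.06 (limma adjusted p = 0.753). Gad1 did pass without animal 21, at -0.6, and without animal 23, at -0.78, whose 9.7 log2 cpm was the highest of the 16 EXT mice. The 3 that were higher were the transcription factor genes Foxp2, Meis2 and Zfhx3.

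Genes of glutamatergic neurons, which surround the CeA, lay on both sides of 0. Of 22 listed, 10 were measured. Rorb and Tcf4, 2 of the 10, were higher (20.0%, against 19.3% of all genes) and 1 was lower (10.0%, against 16.4%). The median was -0.01. The lower one was Nrgn, a calmodulin-binding protein (-0.57, SE 0.17), which did not pass without animal 55 (-0.48). The vesicular glutamate transporter gene Slc17a7 did not pass, with a difference of 1.17 (SE 0.54, limma adjusted p = 0.097), although it did without animal 21, 28 or 53, at 1.35 to 1.63, and the abundant Lmo3, Camk2a and Mef2c did not pass either.

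**Figure D2:**
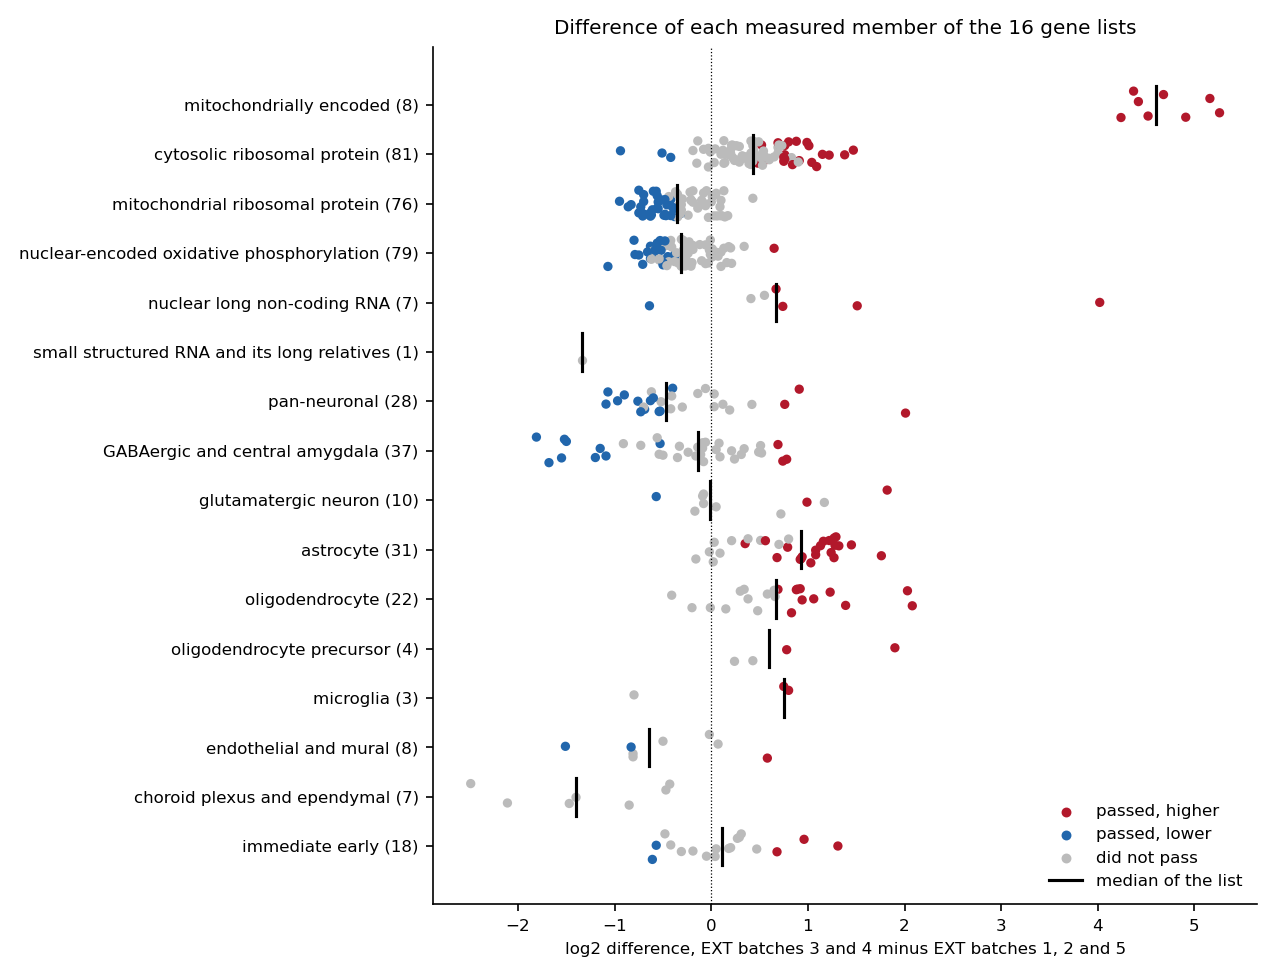
Difference of each measured member (points, log2, batches 3 and 4 minus batches 1, 2 and 5) of the 16 gene lists, with the number measured in parentheses and the list median as a bar. Red points passed the test as higher, blue as lower, and grey ones did not pass. The 8 mitochondrially encoded transcripts and Malat1 lie above 4 and no other list member lies above 2.08.

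Every astrocyte and oligodendrocyte gene that passed was higher. Of 31 astrocyte genes measured, 21 were higher (67.7%, against 19.3% of all genes) and 0 were lower, with a median of 0.93. Ndrg2, among the most abundant astrocyte transcripts, ran from 10.36 through 10.47 to 10.81 log2 cpm in batches 3 and 4 and from 8.49 through 9.29 to 10.43 in the others. Animal 21 held the 10.43 and was the only one to overlap, and all 6 lay above every TA and FC mouse. The difference was 1.28 (SE 0.2, limma adjusted p = 0.000586). Slc1a2, the main glutamate transporter of astrocytes, chosen after its values were seen, was higher by 1.76 (SE 0.32).

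Aldoc, a glycolytic enzyme of astrocytes, was higher by 0.56 (SE 0.16, limma adjusted p = 0.0119), and Apoe and the intermediate filament gene Gfap did not pass, with differences of 0.38 and -0.16. Aldoc did not pass without the sex term (0.52), with all 44 mice in the model (0.52) or against batches 1 and 2 alone (0.61). The mean of the 31 genes was 7.1 to 7.34 log2 cpm in batches 3 and 4. In the others it was 7.16 in animal 21, 7.04 in animal 28 and 5.83 to 6.64 in the other 8 mice. Animals 21 and 28 also had the highest mitochondrial means of the 10, 11.73 and 9.03. Animal 23, lowest of its set in mitochondrial RNA, had the highest astrocyte mean of all 16. The astrocyte mean ran from 5.2 to 7.2 in TA mice and from 5.75 to 7.04 in FC mice. A mean of this size was therefore not particular to batches 3 and 4.

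Of 22 oligodendrocyte genes, 11 were higher (50.0%, against 19.3% of all genes) and 0 were lower, with a median of 0.67. In 5 of the 22 every mouse of batches 3 and 4 lay above every other EXT mouse, where 1.05% of all genes did so. Mobp, a myelin protein, ran from 9.33 through 10.78 to 11.83 log2 cpm in batches 3 and 4 and from 7.78 through 8.94 to 9.3 in the others. The sets did not overlap, animal 21 was at 9.06 with its own batch, and the single mouse of batch 4 had the highest value. The difference was 2.03 (SE 0.33, a 4.08-fold change, limma adjusted p = 0.000717). Mbp, myelin basic protein, was higher by 1.39 (SE 0.26, limma adjusted p = 0.00143), again without overlap. Cnp, also of myelin, differed by -0.01 (limma adjusted p = 0.975), positive at 0.25 against batches 1 and 2 alone. Bcas1, of myelinating cells and chosen after its values were seen, was higher by 2.08 (SE 0.29). FC mice reached 11.29 for Mobp and 13.06 for Mbp, so levels of this size were not particular to batches 3 and 4.

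Smaller cell classes were measured in part, because genes had to pass a minimum level in all samples. Of 10 genes of oligodendrocyte precursors, 4 were measured and 2 were higher (50.0%, against 19.3% of all genes). They were Ptprz1, a receptor phosphatase, by 1.9 (SE 0.38, limma adjusted p = 0.00202) and Sox6. Of 21 microglial genes, 3 were measured and the defining Cx3cr1, P2ry12 and Tmem119 were not among them. Cst3, also abundant in astrocytes, was higher by 0.8 (SE 0.2), and the lysosomal protease gene Ctsd did not pass (-0.8, and -0.92 without animal 57, which did). Of 26 endothelial and mural genes, 8 were measured, and the defining Cldn5 and Pecam1 were not among them. Sparc, a matrix protein, was higher by 0.58 but did not pass when 1 of 10 mice was left out (0.45 to 0.64) or on median-centred or quantile-normalized values. Bsg, basigin of the blood-brain barrier, was lower by 0.83 (SE 0.2), as was Myl9, of smooth muscle. The mean over the list was 6.16 to 7.5 in batches 3 and 4 and 5.7 to 6.57 in the other EXT mice for oligodendrocytes, 7.07 to 7.75 and 6.56 to 7.74 for microglia, and 4.93 to 6.28 and 5.2 to 6.45 for vessels. The part of these cells in the results for single genes was not tested.

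Choroid plexus genes had a wide spread between mice, and immediate early genes passed about as often as all genes did. Ttr, the transthyretin of choroid plexus, ran from 5.09 through 9.57 to 11.34 log2 cpm in batches 3 and 4 and from 3.48 through 11.41 to 15.29 in the others, a wide overlap (-2.49, SE 1.35, limma adjusted p = 0.156). Animal 26 held the 3.48, and without it Ttr passed (-3.24). The lipid enzyme gene Enpp2 did not pass (-2.11, SE 0.89), and did without animal 26 or 57 (both -2.52). Of 7 choroid plexus and ependymal genes measured, 0 passed in limma, against 35.8% of all genes. All 7 differences were below 0, with a median of -1.4. Of 18 immediate early genes, 3 were higher (16.7%, against 19.3% of all genes) and 2 were lower (11.1%, against 16.4%), with a median of 0.11. Arc, of active synapses, was higher by 0.68 (SE 0.21, limma adjusted p = 0.0184), but did not pass without the sex term (0.63) or against batches 1 and 2 alone (0.62). The transcription factor gene Egr1 did not pass (0.47, SE 0.2), and did without animal 21, 22 or 55, at 0.5 to 0.56.

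**Figure D3:**
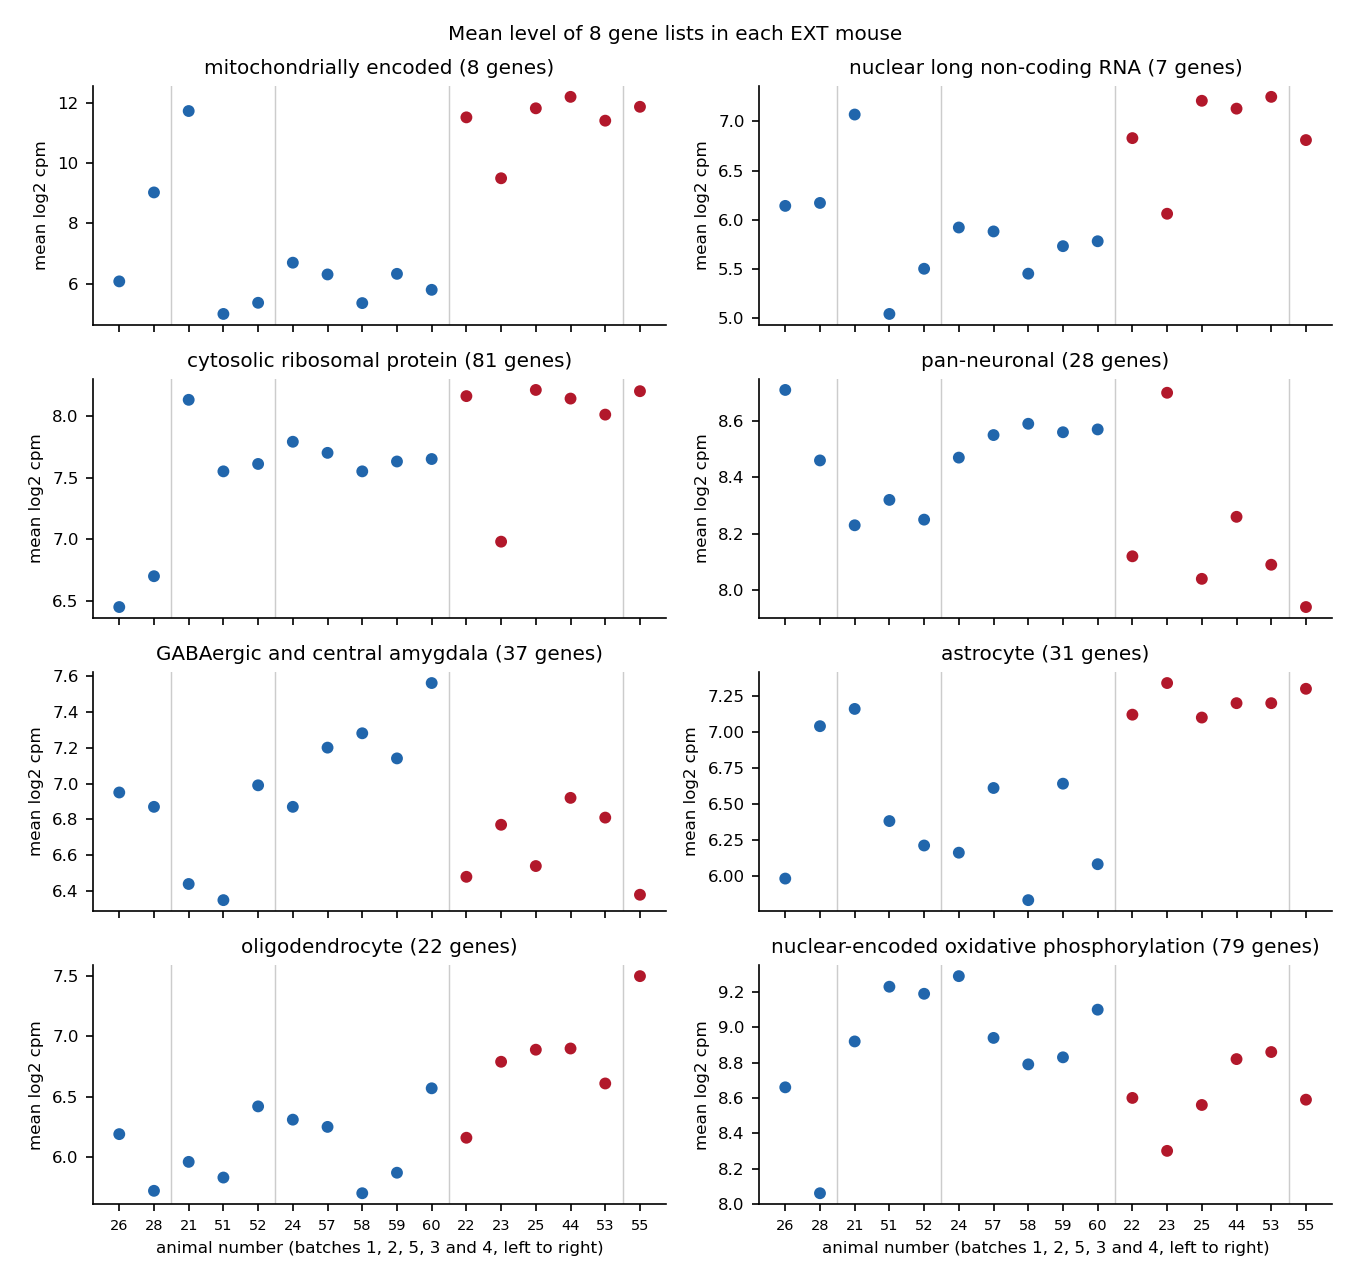
Mean log2 cpm of the measured members of 8 gene lists in each EXT mouse, ordered by batch, with batches 1, 2 and 5 in blue and batches 3 and 4 in red. Animal 21 reaches 11.73 for the mitochondrially encoded list and animal 23 falls to 6.98 for the cytosolic ribosomal protein list, below the 8.01 to 8.21 of the other 5 red points.

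Ranked by p, the 10 leading genes in each direction were mostly outside the lists, and Sst was the only list member among the 20. The 10 higher ones were Myo6, Ranbp6, Mapk8ip2, Hip1, A430033K04Rik, Eps15, Rhobtb3, 4930402H24Rik, Sptan1 and Csgalnact2, with differences of 1.04 to 1.7. Myo6, an actin motor of endocytosis, ran from 5.62 to 6.04 log2 cpm in batches 3 and 4 and from 3.88 to 5.35 in the others. All 6 mice lay above every other EXT mouse, and also above every TA and FC mouse. The difference was 1.51 (SE 0.17, limma adjusted p = 0.000326). Mapk8ip2, a scaffold of JNK signalling, was higher by 1.7 (SE 0.21), Ranbp6, of the importin family, by 1.6 (SE 0.19), and the endocytic adaptor genes Hip1 and Eps15 by 1.53 and 1.15. Sptan1, the spectrin of the membrane skeleton, was higher by 1.53, and animal 21, at 6.77, lay inside the range of batches 3 and 4. These differences were far below those of the mitochondrial transcripts, and their SEs were near 0.2, where mt-Nd2 had 0.79.

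The 10 lower ones were Cbx1, Tpra1, Crip2, Bysl, Sst, Fam216a, Arf6, Aamp, Pef1 and Tyw3, with differences of -1.52 to -0.86. Cbx1, a heterochromatin protein, ran from 3.82 to 4.32 log2 cpm in batches 3 and 4 and from 4.55 to 5.74 in the others. Animal 21 held the 4.55, the sets did not overlap, and the difference was -1.31 (SE 0.16, limma adjusted p = 0.000326). Tpra1 was lower by 1.21, the LIM protein gene Crip2 by 1.06 and the small GTPase gene Arf6 by 0.86. In Cbx1, Tpra1, Arf6 and Aamp alike, the 6 mice lay below every other mouse of the series.

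Transcript length separated the directions across the whole transcriptome. Among 7878 protein-coding genes, those that were higher had a median transcript length of 4148.5 bp, those that were lower 1888 bp and those that did not pass 2928 bp. In the shortest of 5 equal bins, from 341 to 1617 bp, 7.23% of genes were higher and 32.6% lower, with a median difference of -0.24. In the longest bin, from 4828 bp, 36.5% were higher and 5.39% lower, with a median of 0.28. The bins between ran in order, so the share of higher genes grew and that of lower genes shrank at each step. Without animal 21 the longest bin had 39.5% higher and 8.19% lower, and without animal 23 it had 38.1% and 9.33%. Against batches 1 and 2 alone the longest bin had 6.47% higher and 0.19% lower, and the shortest 0.254% and 4.44%.

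The coding length alone gave the same order at its ends, with 10.2% higher in the shortest bin and 36.9% in the longest, and GC content gave a weaker one, with 26.6% higher in the bin with the lowest GC and 15.5% in that with the highest. The cytosolic ribosomal protein genes were an exception among short transcripts. In the shortest bin, 20 of 70 of them were higher and 1 was lower, with a median of 0.46, while of the other 1506 genes 94 were higher and 513 were lower, with a median of -0.27. The mitochondrial transcripts, short too at 955 to 1824 bp, are outside these bins.

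**Figure D4:**
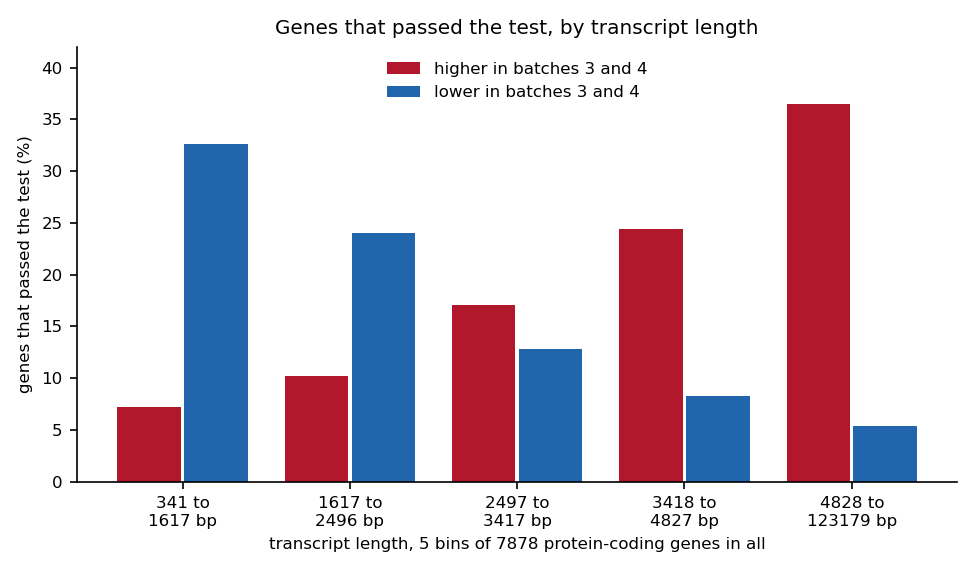
Percentage of protein-coding genes that passed the test as higher (red) or lower (blue) in batches 3 and 4, by 5 equal bins of transcript length in bp. Higher genes go from 7.23% in the shortest bin to 36.5% in the longest, and lower genes from 32.6% to 5.39%.

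The classes were also counted with other batches as the comparison. Against batches 1 and 2 alone, all 8 mitochondrially encoded transcripts (median 4.14), 11 of 31 astrocyte genes and 4 of 22 oligodendrocyte genes were higher, but 0 cytosolic ribosomal protein genes were higher and 0 pan-neuronal genes lower in limma. Of all 8203 genes, 211 were higher and 143 lower there, and 2216 had an unadjusted p under 0.05. Rpl13, Rpl4, Rps2, Mrpl20, Mrpl28, Meg3, Pantr1, Peg13, Gas5, Snap25, Vamp2, Stmn3, Nrgn, Cst3 and Sparc, which passed against all 10 mice, did not pass there. Against batch 5 alone, 15 of 28 pan-neuronal and 15 of 37 GABAergic and central amygdala genes were lower, where 1756 of all 8203 genes were.

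Batch differences where batches 3 and 4 were not involved gave fewer genes. Among the other 10 EXT mice, batch 5 (5 mice) against batches 1 and 2 (5 mice) gave 0 genes in limma (0.0%), with 514 of 8203 (6.27%) at an unadjusted p under 0.05, and this split shares its mice with the comparison above. In TA mice the same split of batches (7 against 9) gave 3 genes (0.0366%), with 0.0244% of genes higher and 0.0122% lower in batch 5, and 2146 (26.2%) at an unadjusted p under 0.05. In FC mice (5 against 7), a split added after the other results were seen, it gave 1127 genes (13.7%), of which 677 (8.25%) were higher and 450 (5.49%) lower in batch 5, and 33.5% of genes had an unadjusted p under 0.05. The mitochondrially encoded transcripts did not pass in any of these splits, with medians of -0.3 in EXT, 0.4 in TA and 0.22 in FC mice. The splits pool batches 1 and 2, however, which themselves differed in mt-Nd2. In TA mice it ran from 6.28 to 8.14 log2 cpm in batch 1 and from 2.98 to 6 in batch 2. In FC mice it ran from 4.97 to 9.19 in batch 1 and from 4.29 to 4.43 in batch 2. Batch 1 against batch 2 was not tested.

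Other classes did move between batches in FC mice. There, 58 of 81 cytosolic ribosomal protein genes were higher in batch 5, where 8.25% of all genes were (median 0.91), as were 51 of 79 nuclear-encoded oxidative phosphorylation genes (median 0.78) and 10 of 22 oligodendrocyte genes (median 1.03). Of 31 astrocyte genes, 2 were. In FC mice the short transcripts, not the long ones, were higher in batch 5, with 25.3% of the shortest bin higher and 1.4% of the longest. A higher ribosomal protein or myelin level was thus not confined to batches 3 and 4. The mean of the astrocyte list reached 7.2 log2 cpm in TA mice, inside the 7.1 to 7.34 of batches 3 and 4. The mitochondrial and Malat1 levels of 5 of the 6 mice were not reached in any TA or FC mouse. Animal 21, an EXT mouse of batch 2, did reach such levels, at 11.3 log2 cpm for mt-Nd2 and 11 for Malat1. The FC count was 0 without animal 12 or without animal 13, 7 without animal 47, 381 without animal 49 and 584 without animal 18. The TA count was 1100 without animal 1 and 439 without animal 33.

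**Figure D5:**
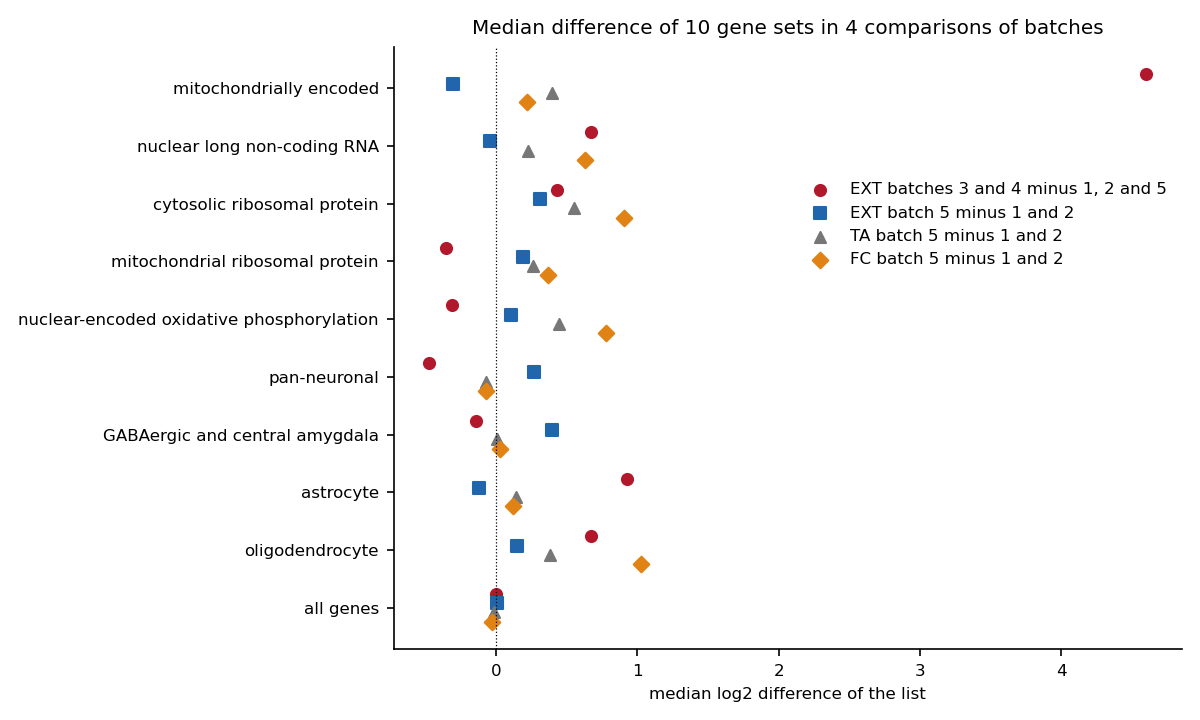
Median log2 difference of 9 gene lists and of all genes in 4 comparisons of batches, 1 symbol and colour for each. The mitochondrially encoded list is at 4.6 for EXT batches 3 and 4 and between -0.3 and 0.4 in the splits without them, while the cytosolic ribosomal protein list is above 0 in all 4.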

How the data were processed

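For the deposited log2 cpm values, the authors ran Trimmomatic 0.36, STAR against GRCm38, SAMtools and edgeR, per the labels and the study's methods, kept genes whose cpm exceeded a floor in every sample, dropped samples they judged outlying, and used the voom form of limma. The libraries were paired-end, from poly(A) RNA amplified with a SMARTer kit, without molecular identifiers. Whole reads were solved back here for 360932 of 360932 values, within 0.05 of a whole number, for library sizes and read shares. Condition, sex and batch are label entries, and each replicate is a separate mouse.

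The log2 values of the EXT mice were fitted in limma 3.58.1 (lmFit, eBayes; R version 4.3.3) with sex as a factor, in a script tested on simulated data. Annotation was GENCODE release 21 for mouse (8007 of 8203 genes matched), and transcript length is that of the transcript with the longest coding sequence. Library size was compared in Python 3.11.15 with numpy 2.4.6, and with pandas 2.3.3 for tables and scipy 1.17.1 for intervals. The members and the 16 gene lists were chosen with earlier results of these data known. The genes named are Malat1, Crh, Rpl10a, the mitochondrially encoded genes, the 4 most abundant members of each list, the 10 with the smallest p in each direction, and others chosen after their values were seen, which include list members named because few passed. Some genes that this rule names are not reported here. Rows that share a name were each counted as a gene.

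Alternatives were no sex term, median-centred or quantile-normalized samples, a minimum mean log2 value of 5, an offset of 4 reads in place of 0.5, voom weights, trended and robust eBayes, an FDR of 0.01, leaving out each mouse, batch 4, or animals 22, 25, 44 and 53, other choices of comparison mice, all 44 mice in a model, library size as a covariate, and males only. The split of FC mice was added after the data were seen.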

Additional observations from a re-analysis of the deposited data

Results flagged for a closer look

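Each value here lay farther from the rest of its set of EXT mice than Dixon's criterion allows at 95%, in log2 cpm. It was applied to 190 sets of values, chance flags about 1 in 20 groups, and 41 values were found, 26 of them in animal 23, 13 in animal 21 and 2 in animal 28. Related genes share their mice, so these are not independent.

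Animal 23 was low among batches 3 and 4 in all 8 mitochondrially encoded transcripts: mt-Rnr1 at 8.49, mt-Rnr2 at 10.5, mt-Nd1 at 9.83, mt-Nd2 at 9.08, mt-Co1 at 10.35, mt-Nd4 at 9.06, mt-Nd5 at 8.68 and mt-Cytb at 10.01, with 9.5 for their mean. It was also low in ribosomal protein genes, with Rpl10a at 6.21, Rpl13 at 8.87, Rpl4 at 8.94, Rpl41 at 8.54, Rps2 at 7.61 and the cytosolic list at 6.98. The same held for Mrpl42 at 7.61, Mrpl51 at 6.96, Csgalnact2 at 3.98, 2900052N01Rik at 6.93, Gas5 at 7.4 and the mean of the nuclear long non-coding RNAs at 6.06. It was high in Sptan1 at 7.51, Bysl at 5.72, Gad1 at 9.7, the endothelial and mural mean at 6.28 and the immediate early mean at 5.59.

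Animal 21 was low among batches 1, 2 and 5 in Crh at 3.49, Cbx1 at 4.55, Fam216a at 6.34, Pef1 at 7.04 and Pdyn at 6.66, and high in Rpl13 at 10.38, Rps2 at 9.36, Ndrg2 at 10.43, Ranbp6 at 6.36, Eps15 at 7.29, Map2 at 9.51, 2900097C17Rik at 8.45 and 1700020I14Rik at 8.41. Its batch label is 2. Animal 28 was low in Mrpl20 at 7.16 and in the mean of nuclear-encoded oxidative phosphorylation genes at 8.06.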

How the results depend on the processing

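The cause of each change here was not tested. In place of 2933 genes, 1428 passed at an FDR of 0.01, 354 against batches 1 and 2 only (333 of them among the 2933, in the same direction) and 21 without animals 22, 25, 44 and 53 (19 of them), which leaves 2 mice against 10. Leaving out each mouse gave 2081 to 3568 genes, 0 to 63 for batch 5 against 1 and 2 in EXT mice (63 without animal 24), 0 to 1100 in TA mice and 0 to 1413 in FC mice. The TA split gave 0 genes with a minimum mean of 5, with trended and robust eBayes and at an FDR of 0.01, by limma, and the FC split gave 1 at an FDR of 0.01. The log2 library size difference was 0.02 against batch 5 only and -0.07 to 0.02 on leaving out mice. Against batches 1 and 2 only, medians changed sign for GABAergic and central amygdala genes (0.14) and glutamatergic genes (0.28), as did Cnp (0.25) and Gad2 (0.06). Without animals 22, 25, 44 and 53 this held for glutamatergic (0.45) and endothelial genes (0.19), Cnp (0.54), Gad2 (0.01) and Gfap (0.11). Glutamatergic genes were also at 0.04 without batch 4, 0.07 with each batch weighted equally (Cnp 0.01) and 0.0 with library size as a covariate. Microglial genes were at 0.0 with a minimum mean of 5, immediate early genes at -0.01 in males only, where Rpl10a was at 0.25 and Gfap at 0.13, and Rpl10a was at 0.07 against batch 5 only. Leaving out mice gave -0.07 to 0.09 for glutamatergic genes, -0.09 to 0.13 for Rpl10a, -0.25 to 0.13 for Cnp and -0.47 to 0.1 for Gfap. No paired analysis was possible because the groups share no replicate numbers. The median count of a gene was 823 reads and the lowest 28, which bounds the counting error of the values.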
